A study of Rattus norvegicus with 26 samples.

Results

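Antioxidant enzymes and targets of the transcription factor NRF2 were followed in the soleus of aged female rats, a calf muscle made mostly of slow fibres. The members are a list of 36 gene symbols. All 36 were found among the 34034 genes of the count table, and all 36 passed a filter on low counts that 10064 genes passed. The rats came from the 44th generation of lines selected for low (LCR) or high (HCR) running capacity. The 4 groups were 8 sedentary LCR rats, 8 sedentary HCR rats, 5 LCR rats with a running wheel and 5 HCR rats with a wheel. All were females on standard chow, and the labels call the animals aged without giving an age. Sedentary rats had no wheel. Running rats lived in pairs with a wheel for more than 5 months, so the distance run by each rat is unknown. Cage was not a term of the fit, so each runner of a pair entered it as an animal of its own. The runners were a cohort of their own, so cohort and running cannot be told apart.

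NRF2, encoded by Nfe2l2, is held in the cytoplasm and marked for degradation by KEAP1, an adaptor of a ubiquitin ligase. Oxidants and electrophiles modify KEAP1, NRF2 then escapes to the nucleus, pairs with small MAF proteins and binds antioxidant response elements near genes for quinone reduction, glutathione synthesis, thioredoxin recycling and conjugation. Superoxide dismutases, catalase, glutathione peroxidases and peroxiredoxins remove superoxide and peroxides, which contracting muscle makes continuously. Because NRF2 is set mainly by protein stability, its own mRNA level is not a measure of its activity.

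The core of the antioxidant response element, TGACNNNGC on either strand, was looked for between 250 bases before and 50 bases after each annotated start, in RefSeq promoters of the rat assembly GRCr8. Promoters were found for 32 of the 36 members, not for Hmox1, Gsr, Sod3 or Prdx6. The core occurred in 8 of these 32 (25%) and in 12.2% of all 27456 promoters of that length. The 8 genes were Nfe2l2, Gclm, Sod2, Prdx1, Prdx5, Gstp1, Mt1 and Mt2A. The following windows show the core, in capitals, in the 7 genes where it began before the start, and in Prdx5 it runs across the start. They are printed because a reader can see which letters a promoter match consists of. None of the members that passed in a group comparison below is among them, but Hmox1, one of those members, had no promoter to search.
Gclm, chr2:213031957-213031977, minus strand: agacaaTGACTAAGCagaaac
Sod2, chr1:50050189-50050209, plus strand: aggcgcTGACCCTGCcggcag
Prdx1, chr5:135383765-135383785, minus strand: ggggtaTGACTCAGCgctttc
Prdx5, chr1:213532014-213532034, plus strand: cgcagaTGACTCTGCccacag
Gstp1, chr1:210769752-210769772, minus strand: ctgtgtTGACTCAGCatccgg
Mt1, chr19:10833062-10833082, minus strand: cgctcgTGACTGAGCgcgggc
Mt2A, chr19:10838931-10838951, minus strand: ggggtgTGACTCAGCgcgggg
The promoters of Nqo1, Gstm2, Cat and Osgin1 held no core within this window. A match is only a run of letters, and elements farther from a start were not searched.

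Libraries held 1099960 to 2523940 counts, and the 26 animals entered a single fit. Levels are given in CPM, counts scaled to a common library size with TMM factors, as mean ± SD over rats or as single rats, and fold changes on the log2 scale with their SE. A change passed when edgeR's adjusted p over all 10064 genes was under 0.05. The slow-fibre list of 8 genes summed to between 23411 and 44992 CPM per rat and the fast-fibre list of 11 genes to between 2661 and 13719 CPM, and none of these 19 genes was at 0 in all libraries. For HCR running 5 and LCR running 5 the title names the line opposite to the genotype, and the genotype was used. Over the 20 genes that separated the sedentary lines most, HCR running 5 lay nearer the sedentary HCR mean for 14 and LCR running 5 nearer the sedentary LCR mean for 20. The other HCR runners lay nearer HCR for 13 to 16 genes and the other LCR runners nearer LCR for 18 to 19.

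Between the sedentary lines 3 of the 36 members passed, 2 higher in HCR and 1 lower, where 2.72% of all genes tested passed. Hmox1 and Gstm2 were the higher ones and Nqo1 the lower one. An unadjusted p under 0.05 was reached by 9 members (25%), against 15.9% of all genes. The median difference over the members was 0.04, against 0.01 over all genes. Taken without sign, the median difference on the log2 scale was 0.175 over the members and 0.135 over all genes. Between the lines with wheels 0 of 36 members passed by edgeR, where 0.626% of all genes passed. In that comparison 3 members, Nqo1, Cat and Gsta4, reached an unadjusted p under 0.05 (8.33%, against 8.58% of all genes), and 0 passed with DESeq2 or limma voom. Averaged over sedentary and running rats, 3 members passed, Nqo1, Gstm2 and Cat, where 3.75% of all genes passed.

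For running, averaged over the lines 1 of 36 passed, Osgin1, lower in runners, where 0.378% of all genes passed. Within LCR 0 members passed, where 0% of all genes passed, and 3 reached an unadjusted p under 0.05 (8.33%, against 6.08% of all genes). Within HCR 0 members passed, where 0.0994% of all genes passed, and 6 reached an unadjusted p under 0.05 (16.7%, against 12.5%). For the difference between the lines' responses to running 0 members passed, where 0% of all genes passed, and 3 reached an unadjusted p under 0.05 (8.33%, against 5.88%). DESeq2 and limma voom also passed 0 members in these 3 comparisons. The median change over the members was 0.03 averaged over the lines, 0.03 in LCR and 0.07 in HCR, against values within 0.01 of 0 over all genes. The comparisons share libraries, so their values are given side by side and not as separate evidence.

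**Figure D1:**
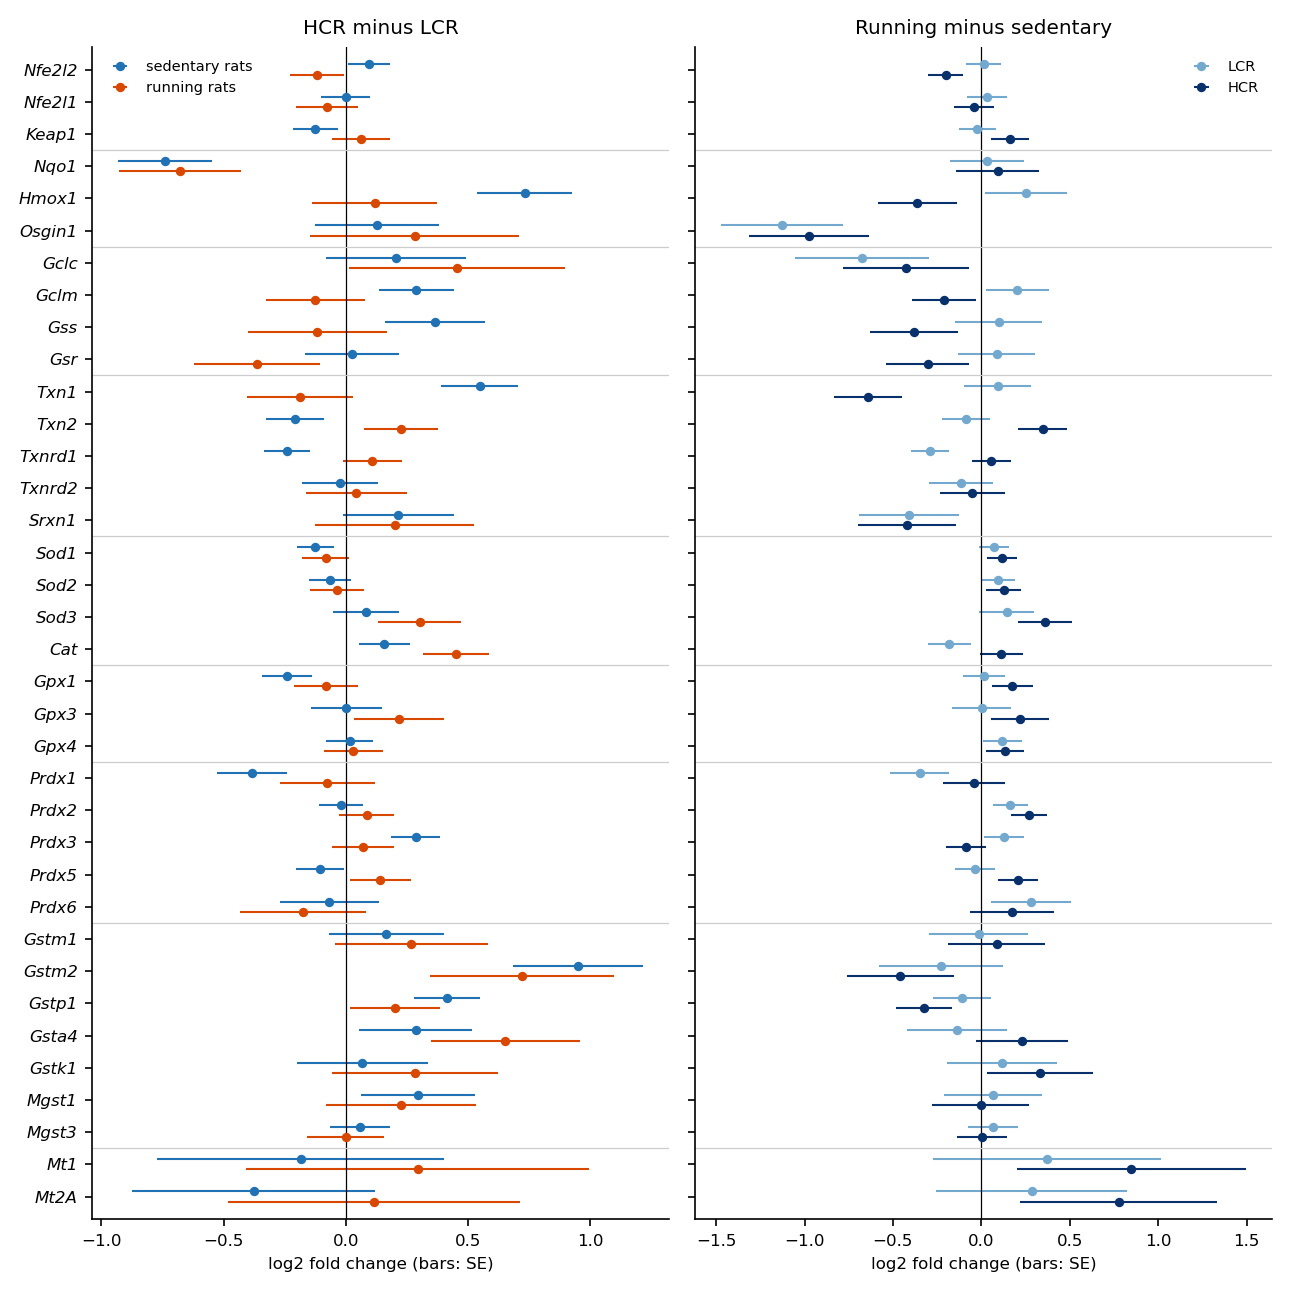
Log2 fold change of each of the 36 members (points, bars are SE), HCR minus LCR on the left for sedentary and running rats, running minus sedentary on the right for each line, with grey lines between roles. Nqo1 lies below 0 and Gstm2 above 0 in both groups on the left, Osgin1 lies below 0 in both lines on the right, and Mt1 and Mt2A have the widest bars.

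The mRNA levels of the switch genes differed little between groups, and NRF2 activity was not measured. Nfe2l2 was at 119 ± 13.7 CPM in sedentary LCR and 128 ± 13.4 CPM in sedentary HCR (n = 8 each), and at 121 ± 14.95 CPM in running LCR and 111 ± 14.2 CPM in running HCR (n = 5 each). The 4 ranges overlapped, from 89.8 to 149 CPM over all rats. Its difference between the sedentary lines was 0.10 ± 0.09, with a 95% interval from -0.08 to 0.27, and the change with running in HCR was -0.20 ± 0.10 (edgeR adjusted p = 0.403). Keap1, the inhibitor, was at 62.6 ± 5.26, 57.5 ± 8.07, 61.3 ± 6.74 and 64.8 ± 8.59 CPM in the same order of groups. Its interval between the sedentary lines ran from -0.31 to 0.06 and its interval for running averaged over the lines from -0.08 to 0.22. Nfe2l1, a related factor that drives proteasome genes, had group means from 1551.5 to 1634 CPM, and its line difference in sedentary rats was 0.00 ± 0.10.

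Nqo1 reduces quinones by a transfer of a pair of electrons and is a standard readout of NRF2. In sedentary LCR it ran from 31.7 to 56.5 CPM with a median of 45.9, and in sedentary HCR from 13.2 to 40.4 CPM with a median of 26.3. All 8 sedentary HCR rats lay below the LCR median and 5 of them below every sedentary LCR rat, so the groups overlapped in part. The difference was -0.74 ± 0.19 (edgeR adjusted p = 0.0337), a level 1.67 times as high in LCR. In runners the levels were 53.7, 49.6, 34.2, 39.8 and 57.2 CPM in LCR and 43.6, 22.8, 26.2, 29.0 and 21.5 CPM in HCR, replicates 1 to 5 in order. Here 4 of 5 HCR runners lay below every LCR runner and HCR running 1 lay among them. The runners' difference, -0.68 ± 0.25, did not pass alone (edgeR adjusted p = 0.319; -0.20 with the conflicting libraries under their title's line), and the average over both was -0.71 ± 0.16 (edgeR adjusted p = 0.00711). Running itself left values of 0.03 ± 0.21 in LCR and 0.09 ± 0.23 in HCR, with 95% intervals from -0.40 to 0.46 and from -0.39 to 0.57. The averaged difference passed in all 26 refits that each left out 1 library. It was -0.47 and did not pass (adjusted p = 0.229) when the 2 libraries with a conflicting title were moved to the title's line. HCR running 5, at 21.5 CPM, was the lowest HCR runner and LCR running 5, at 57.2 CPM, the highest LCR runner. The averaged call thus depends on the line these 2 libraries are given, and their Nqo1 levels cannot settle which is right. Over the 20 genes that separated the sedentary lines most, both lay nearer the line of their genotype. HCR running 5 did so for 14 genes and LCR running 5 for 20. The difference in sedentary rats passed in 18 of the 26 refits. It did not pass without LCR sedentary 1, 5, 7 or 8 or HCR sedentary 2, 3, 5 or 7, with adjusted p up to 0.0741. It also did not pass with no filter beyond at least 1 count (adjusted p = 0.0792), with only the groups compared in the fit (adjusted p = 0.0570) or with the title's line (adjusted p = 0.0780).

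Hmox1, which cleaves haem to biliverdin, iron and carbon monoxide, differed the other way between the sedentary lines. Sedentary LCR rats ran from 12.3 to 24.6 CPM with a median of 15.2, and sedentary HCR rats from 17.5 to 35.1 CPM with a median of 25.5. All 8 HCR rats lay above the LCR median and 4 above every LCR rat, with LCR sedentary 2 alone reaching into the HCR range. Hmox1 was 1.66 times as high in HCR (log2 0.73 ± 0.19, edgeR adjusted p = 0.0327). In runners it was at 21.7, 18.5, 12.2, 31.6 and 7.91 CPM in LCR and at 24.4, 16.8, 24.8, 19.0 and 15.3 CPM in HCR. All 5 HCR values lay inside the LCR range, and the runners' difference was 0.12 ± 0.25 (adjusted p = 0.950). The lines' responses to running differed by -0.61 ± 0.32, which did not pass (adjusted p = 0.852), so the sedentary and running differences were not shown to differ. The sedentary difference passed under each of the 9 other processing choices and in 16 of 26 refits without 1 library. It did not pass without LCR sedentary 1, 3, 4, 6, 7 or 8 or HCR sedentary 1, 5, 7 or 8, with adjusted p up to 0.0736. Averaged over sedentary and running rats Hmox1 was at 0.43 ± 0.16 (adjusted p = 0.151), and it passed without LCR running 4 (adjusted p = 0.0401).

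Macrophages express Hmox1 strongly, and most of their markers also had higher values in sedentary HCR. Of 18 macrophage markers 16 were tested. Between the sedentary lines 15 had a value above 0 in HCR against LCR, with a median of 0.33, and 2 passed. Of all genes 51.4% lay above 0 and 2.72% passed there. Between the lines with wheels 12 of the 16 lay above 0 (50.6% of all genes), with a median of 0.08. Of these markers 0 reached an unadjusted p under 0.05 in runners, against 8.58% of all genes. The 2 that passed between the sedentary lines were Folr2, a folate receptor of resident macrophages (0.73 ± 0.15, adjusted p = 0.00516), and Spp1, osteopontin (1.56 ± 0.39, adjusted p = 0.0317). The 18 markers summed to 346 to 684 CPM in sedentary LCR, 541 to 860 CPM in sedentary HCR, 547 to 799 CPM in running LCR and 515 to 906 CPM in running HCR, and none was at 0 in all libraries. Cd68, a lysosomal protein of macrophages, differed by 0.64 ± 0.19 between the sedentary lines (adjusted p = 0.0509). Across rats, with group means removed, Hmox1 and Cd68 had r = 0.07 and rho = 0.07 (n = 26, permutation p adjusted over 14 pairs = 0.830 and 0.881). The part of these cells in the Hmox1 difference was not tested, and in whole muscle fewer cells of a type and less RNA per cell cannot be told apart.

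Osgin1, a growth inhibitor induced by oxidative stress, was the member that changed with running. Its levels were low, with 2 to 25 counts per library. In sedentary rats it ran from 4.71 to 13.5 CPM in LCR (median 8.26) and from 4.59 to 15.8 CPM in HCR (median 10.5). LCR runners were at 4.88, 7.30, 1.16, 2.53 and 3.52 CPM, and HCR runners at 4.15, 4.88, 4.96, 5.80 and 5.11 CPM. All 10 runners lay below the median of their sedentary line, and 3 LCR runners and 1 HCR runner below every sedentary rat of it, so the groups overlapped. Averaged over the lines Osgin1 fell by 1.05 on the log2 scale (SE 0.24, edgeR adjusted p = 0.0425), that is to 0.482 times the sedentary level. The line-specific values were -1.13 ± 0.34 in LCR (adjusted p = 0.706) and -0.98 ± 0.34 in HCR (adjusted p = 0.203), and neither passed alone. The call is near the threshold. It held in 8 of 26 refits without 1 library, with adjusted p up to 0.102 in the others, which left out LCR sedentary 1, 2, 3, 6, 7 or 8, HCR sedentary 2, 5, 6, 7 or 8, LCR running 1, 3 or 4, or HCR running 1, 2, 3 or 5. It did not pass with limma voom (adjusted p = 0.112) or without the 2 libraries with conflicting titles (adjusted p = 0.0726), and the change stayed between -1.26 and -0.90 throughout.

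**Figure D2:**
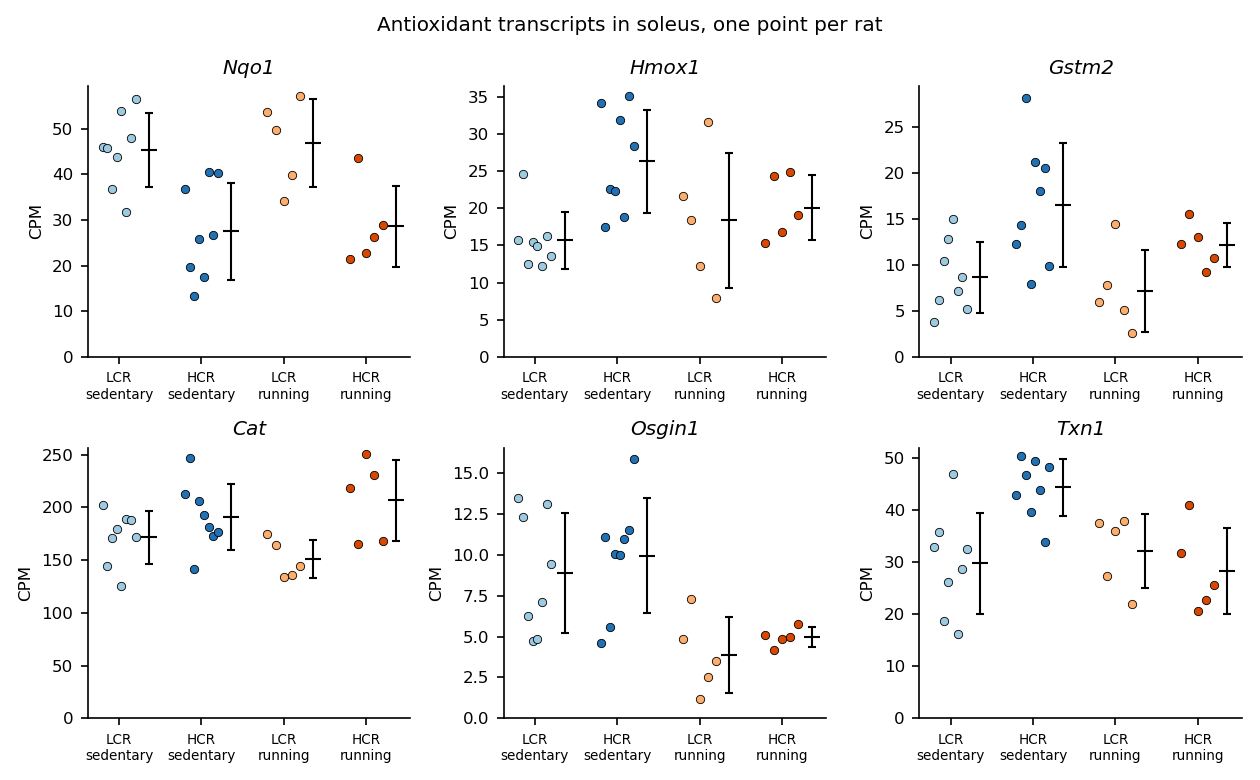
CPM of the members that passed a test, and of Txn1, in every rat (points) of the 4 groups, with the group mean (horizontal tick) and SD (vertical bar) beside them. Nqo1 is lower in both HCR groups, Hmox1 and Txn1 are highest in sedentary HCR, Gstm2 is higher in both HCR groups, and all 10 runners lie below the Osgin1 median of their sedentary line.

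Glutathione, the main soluble thiol, is built by the glutamate-cysteine ligase subunits Gclc and Gclm and by Gss, and reduced again by Gsr. None of the 4 passed in any comparison. Between the sedentary lines all 4 values lay above 0, from 0.03 to 0.37 with Gss the largest (0.37 ± 0.21, adjusted p = 0.396). In HCR runners against sedentary HCR all 4 lay below 0, from -0.43 to -0.21. In LCR runners 3 of the 4 lay above 0 and Gclc was at -0.67 ± 0.38 (adjusted p = 0.829). Gclc is known from few reads, 2 to 16 counts per library, and passed the filter in only 16 of the 26 refits. The subunits Gclc and Gclm, which act as a pair, had r = 0.22 and rho = 0.17 across rats (n = 26, permutation, adjusted p = 0.671 and 0.711).

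The thioredoxin system held the 3 members with the smallest p for the difference between the lines' responses to running, none of which passed. Txn1, the cytosolic thioredoxin, reduces peroxiredoxins and ribonucleotide reductase. Sedentary LCR rats ran from 16.2 to 46.8 CPM with a median of 30.6, and sedentary HCR rats from 33.9 to 50.3 CPM with a median of 45.3. All 8 HCR rats lay above the LCR median and LCR sedentary 5 alone lay above the HCR median. The difference of 0.55 ± 0.16 missed the threshold by edgeR (adjusted p = 0.0545) and was 0.68 and passed (adjusted p = 0.00808) without LCR sedentary 5. It also passed without HCR sedentary 7 (adjusted p = 0.0465), LCR running 5 (adjusted p = 0.0482), HCR running 1 (adjusted p = 0.0369) or HCR running 2 (adjusted p = 0.0483). DESeq2 passed it (adjusted p = 0.0389), as did limma voom (adjusted p = 0.0418).

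In runners Txn1 was at 37.4, 27.2, 35.9, 37.9 and 22.0 CPM in LCR and at 41.0, 20.6, 22.7, 25.7 and 31.7 CPM in HCR. HCR runners all lay below the sedentary HCR median and 4 of 5 below every sedentary HCR rat, a change of -0.64 ± 0.19 (adjusted p = 0.161). LCR runners lay within the sedentary LCR range, with 0.09 ± 0.19. The responses differed by -0.73 ± 0.27, with an unadjusted p of 0.0100 and an adjusted p of 0.835. Txn2, the mitochondrial thioredoxin, had the opposite sign, with 0.35 ± 0.14 in HCR and -0.09 ± 0.14 in LCR (difference of responses 0.43 ± 0.19, adjusted p = 0.836). HCR runners were at 32.7, 33.6, 38.3, 38.9 and 35.8 CPM against 21.2 to 34.4 CPM in sedentary HCR, and 3 of them lay above that range. Txnrd1, which reduces cytosolic thioredoxin with NADPH, was at 112 ± 13.1 CPM in sedentary LCR and 91.4 ± 9.30 CPM in running LCR, where 4 of 5 runners lay below every sedentary rat (-0.29 ± 0.11, adjusted p = 0.706). In HCR it was 95.3 ± 15.8 CPM in sedentary rats and 98.6 ± 11.5 CPM in runners, with 0.06 ± 0.11. For Txnrd1 the responses differed by 0.35 ± 0.15 (adjusted p = 0.836). Txnrd2, the mitochondrial reductase, and Srxn1, which reactivates overoxidised peroxiredoxins, did not pass either, and Srxn1 was at -0.41 ± 0.20 with running averaged over the lines (adjusted p = 0.381).

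Among enzymes that handle superoxide and hydrogen peroxide, Cat was the member that passed. Catalase, the peroxisomal enzyme that splits hydrogen peroxide, ran from 126 to 202 CPM in sedentary LCR (median 176) and from 141 to 247 CPM in sedentary HCR (median 187). LCR runners were at 175, 164, 134, 136 and 144 CPM and HCR runners at 165, 251, 231, 168 and 219 CPM. In runners 3 of 5 HCR rats lay above every LCR rat, and all 5 above the LCR median. The difference was 0.16 ± 0.11 in sedentary rats (adjusted p = 0.496) and 0.45 ± 0.13 in runners (adjusted p = 0.150; 0.22 with the conflicting libraries under their title's line), and it passed as an average, 0.30 ± 0.09 (edgeR adjusted p = 0.0347), or 1.24 times as high in HCR. The lines' responses to running differed by 0.29 ± 0.17 (adjusted p = 0.852). The average passed in 16 of 26 refits and reached an adjusted p of up to 0.0938 without LCR sedentary 2 or 8, HCR sedentary 1 or 2, LCR running 3, 4 or 5, or HCR running 2, 3 or 5. It did not pass with limma voom (adjusted p = 0.0566), without both libraries with conflicting titles (adjusted p = 0.0944) or with their title's line (adjusted p = 0.417, difference 0.19).

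The superoxide dismutases did not pass in any comparison. Sod1, the cytosolic copper and zinc enzyme, had group means from 280 to 320 CPM (279.6 in sedentary HCR and 320.1 in running LCR), with a 95% interval for the line difference in sedentary rats from -0.28 to 0.03. Sod2, the mitochondrial manganese enzyme, had group means from 226 to 253 CPM, and its line difference was -0.06 ± 0.09 in sedentary rats and its running change 0.11 ± 0.07 averaged over the lines. Sod3 is secreted and binds the matrix. HCR runners had 27.0, 21.2, 26.2, 27.3 and 23.5 CPM of Sod3 against 16.6 to 23.8 CPM in sedentary HCR, 3 of them above that range, and running averaged over the lines gave 0.25 ± 0.11 (adjusted p = 0.317). Sod3 and the collagen gene Col1a1 had r = -0.07 across rats (rho -0.07, n = 26, permutation adjusted p = 0.830 and 0.881).

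Glutathione peroxidases use glutathione to reduce peroxides. Gpx1, the cytosolic form, was at 776 ± 81.8 CPM in sedentary LCR and 657 ± 111 CPM in sedentary HCR, a difference of -0.24 ± 0.10 that did not pass (adjusted p = 0.221). HCR sedentary 3 was at 413 CPM, against 589 to 740 CPM in the others of its group. The difference ran from -0.28 to -0.17 over the refits without 1 library. Gpx3, the secreted form, had group means from 107 to 126 CPM, and Gpx4, which protects membrane lipids, from 321 to 357 CPM. Running values of all 3 lay above 0 in both lines, from 0.00 to 0.12 in LCR and from 0.13 to 0.22 in HCR, and none passed. Gpx3 and the adipocyte hormone gene Adipoq had r = 0.28 and rho = 0.26 across rats (n = 26, permutation, adjusted p = 0.491 and 0.554).

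Peroxiredoxins, thiol peroxidases most of which thioredoxin recycles, went different ways between the sedentary lines and none passed. Prdx1, cytosolic and a known NRF2 target, was at 49.3 ± 6.95 CPM in sedentary LCR and 37.7 ± 6.59 CPM in sedentary HCR, with all 8 HCR rats below the LCR median and 5 below every LCR rat (-0.38 ± 0.14, adjusted p = 0.157). In LCR runners Prdx1 was at 47.7, 31.6, 21.4, 39.2 and 57.2 CPM, 3 of 5 below every sedentary LCR rat (-0.35 ± 0.17, adjusted p = 0.795). That value was -0.19 without LCR running 3 and -0.53 with the conflicting libraries under their title's line. Prdx3, the mitochondrial form, had the opposite line difference, 0.29 ± 0.10 (adjusted p = 0.118), with 69.6 ± 9.46 CPM in LCR and 84.6 ± 12.5 CPM in HCR. Prdx3 followed citrate synthase, Cs, with r = 0.53 and rho = 0.56 across rats, of which rho passed over the 14 pairs (permutation, adjusted p = 0.0688 for r and 0.0390 for rho, n = 26). The r was 0.57 within sedentary LCR, 0.84 within sedentary HCR and 0.27 over the 10 runners, and 0.48 without the 2 rats farthest from the median of Prdx3. With Sod2, the other mitochondrial enzyme, Prdx3 had r = 0.45 and rho = 0.44 (adjusted p = 0.124 and 0.132, n = 26, permutation).

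Prdx2, abundant in red cells and in muscle, had the smallest adjusted p after Osgin1 for running averaged over the lines, with 0.22 ± 0.07 (adjusted p = 0.165). LCR runners were at 201, 193, 136, 164 and 204 CPM against 144 to 192 CPM in sedentary LCR. HCR runners were at 181, 168, 221, 168 and 218 CPM against 129 to 188 CPM in sedentary HCR. All 5 HCR runners lay above the sedentary median and 2 above the whole range, while LCR running 3 lay below every sedentary LCR rat. Erythrocyte markers, of which 5 of 10 were tested, summed to 230 to 381 CPM in sedentary LCR, 167 to 617 CPM in sedentary HCR, 96.8 to 576 CPM in running LCR and 76.3 to 619 CPM in running HCR, 0 of the 5 passed for running (0 also at an unadjusted p under 0.05), and their part was not tested. Prdx5 and Prdx6 had running values of 0.09 ± 0.08 and 0.23 ± 0.16 averaged over the lines.

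Glutathione transferases join glutathione to electrophiles. All 7 had a value above 0 in sedentary HCR against LCR, from 0.06 to 0.95 with a median of 0.29, and 1 of the 7 passed. Of all genes 51.4% lay above 0 there and 2.72% passed. Averaged over sedentary and running rats all 7 again lay above 0, with 1 passing, and most of the libraries are the same. Of all genes 50.7% lay above 0 in that average and 3.75% passed. Gstm2 was the one that passed. In sedentary LCR it ran from 3.78 to 15.0 CPM (median 7.92) and in sedentary HCR from 7.92 to 28.2 CPM (median 16.2). All 8 HCR rats lay above the LCR median, HCR sedentary 4 only just, and 4 above every LCR rat. Gstm2 was 1.93 times as high in sedentary HCR (0.95 ± 0.27, edgeR adjusted p = 0.0464), and 0.84 ± 0.23 averaged over both (adjusted p = 0.0337). LCR runners were at 5.97, 7.78, 14.5, 5.05 and 2.64 CPM and HCR runners at 15.6, 13.0, 9.22, 10.8 and 12.3 CPM, with 1 HCR runner above every LCR runner and LCR running 3 above 4 of the 5 HCR runners.

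The Gstm2 call in sedentary rats held in 8 of 26 refits, with adjusted p up to 0.128 in the others, which left out LCR sedentary 1, 2, 3, 6, 7 or 8, HCR sedentary 2, 3, 5, 6 or 7, LCR running 1, 2 or 4, or HCR running 2, 3, 4 or 5. The averaged call held in 17 of 26 and reached an adjusted p of up to 0.0855 without LCR sedentary 8, HCR sedentary 7, LCR running 1, 2, 4 or 5, or HCR running 1, 2 or 5. With no filter beyond at least 1 count both calls were lost (adjusted p = 0.116 and 0.0863), as with the title's line (adjusted p = 0.0746 and 0.260). The sedentary call was also lost with only the groups compared in the fit (adjusted p = 0.0674) and the averaged call without both libraries with conflicting titles (adjusted p = 0.0873). The difference stayed above 0 under each choice run. Gstm1 and Gstm2 are near copies, as is Gstm7, which was higher in HCR averaged over sedentary and running rats (0.54 ± 0.15, adjusted p = 0.0391), so reads may have been split between them. Gstm1 was at 0.17 ± 0.23 between the sedentary lines, and Gstm1 and Gstm2 had r = 0.20 and rho = 0.17 across rats (n = 26, permutation, adjusted p = 0.674 and 0.711).

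Gstp1, the pi-class enzyme, was at 20.1 ± 5.48 CPM in sedentary LCR and 26.9 ± 3.5 CPM in sedentary HCR. All 8 HCR rats lay above the LCR median, but LCR sedentary 8, at 32.4 CPM, lay above every HCR rat. The difference of 0.41 ± 0.13 did not pass (adjusted p = 0.0899), and without LCR sedentary 8 it was 0.55 and passed (adjusted p = 0.0119). Averaged over sedentary and running rats it was 0.31 ± 0.11 (adjusted p = 0.140), and it passed without LCR sedentary 8 (adjusted p = 0.0292). Gsta4, which acts on lipid aldehydes, was at 4.88, 6.81, 5.79, 4.42 and 6.16 CPM in LCR runners and 7.79, 6.51, 6.38, 12.4 and 13.3 CPM in HCR runners, 3 of 5 above every LCR runner (0.65 ± 0.31, adjusted p = 0.534). The highest of these, HCR running 5, has a conflicting title, and with the title's line for both such libraries the value was 0.23. The peroxisomal and mitochondrial Gstk1 and the membrane-bound Mgst1 and Mgst3 had line differences of 0.07 ± 0.27, 0.30 ± 0.23 and 0.06 ± 0.12 in sedentary rats.

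Metallothioneins, small cysteine-rich proteins that bind zinc and copper, are induced by metals and glucocorticoids. They stood apart by their spread between rats of the same group. Mt1 ran from 1.08 to 68.2 CPM in sedentary LCR (2 to 182 counts), from 5.94 to 52.5 CPM in sedentary HCR, from 0.879 to 53.7 CPM in running LCR and from 12.5 to 66.4 CPM in running HCR. Mt2A ran from 6.25 to 60.7, 12.2 to 34.5, 5.28 to 52.1 and 9.76 to 73.2 CPM in the same groups. The biological coefficient of variation, the spread that counting does not account for, was 86.0% for Mt1 and 66.6% for Mt2A, higher than in 99.8% and 99.4% of all genes tested. No group difference passed for either gene. The line difference of Mt1 in sedentary rats had a 95% interval from -1.40 to 1.03 and its change with running averaged over the lines one from -0.34 to 1.56.

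The 2 genes varied together. Across the 26 rats, with group means removed, Mt1 and Mt2A had r = 0.87 and rho = 0.91 (permutation p = 1e-05, the smallest that 100000 resamples can give, adjusted p = 0.00014 over 14 pairs). The r was 0.85 within sedentary LCR, 0.90 within sedentary HCR and 0.90 over runners, and 0.85 without LCR running 5 and LCR sedentary 1, the rats farthest from the median of Mt1. Picked after their values were seen, LCR sedentary 5, HCR running 1 and LCR running 1 were high for both genes and LCR running 5 and LCR sedentary 1 and 3 low for both. The genes resemble each other in sequence, and the sources used here do not say how reads that match both were counted. Mt1 and Tsc22d3, a glucocorticoid target, had r = 0.24 and rho = 0.26 (n = 26, permutation, adjusted p = 0.671 and 0.554). Mt2A and Fkbp5, another glucocorticoid target, had r = -0.44 and rho = -0.43 (n = 26, permutation, adjusted p = 0.129 and 0.132). Of 14 glucocorticoid targets tested 10 lay above 0 with running averaged over the lines, with a median of 0.32. Of all genes 49% lay above 0 there and 0.378% passed. Among the targets 4 passed as higher, among them Tsc22d3 (0.45 ± 0.08, edgeR adjusted p = 0.00551). Dusp1, which is also on the list of immediate early genes, fell by 0.70 on the log2 scale (SE 0.16, adjusted p = 0.0446).

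**Figure D3:**
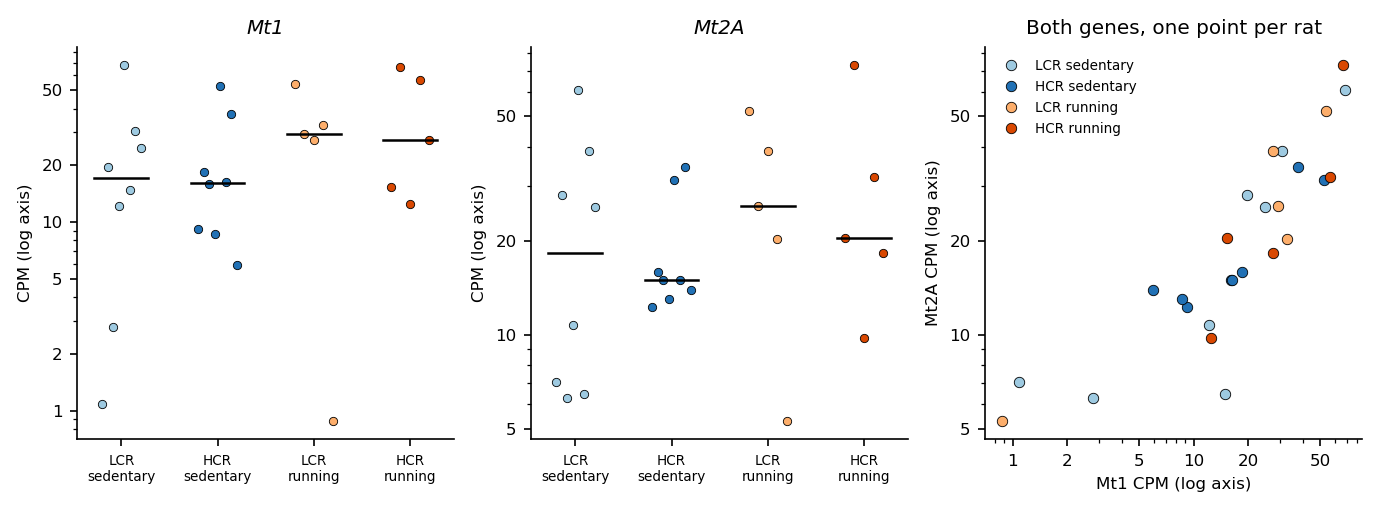
CPM of Mt1 (left) and Mt2A (middle) in every rat on log axes, with group medians as bars, and Mt2A against Mt1 with one point per rat (right, both axes log). Levels within a group span from 0.879 to 53.7 CPM for Mt1 in running LCR, and rats high for Mt1 are high for Mt2A.

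The promoters of both genes are shown because the pair varied together and both are classic targets of the metal-sensing factor MTF1. The 250 bases before each start are given, from RefSeq on GRCr8, with the core of the metal response element, TGCACNC or TGCGCNC on either strand, in capitals. Mt1 held 6 matches and Mt2A 4 that did not overlap. Of all 27456 promoters 25% held at least 1 match and 1.81% held 3 or more. The windows lie 5483 bases apart on the minus strand of chromosome 19, Mt1 at chr19:10832976-10833225 and Mt2A at chr19:10838709-10838958.
Mt1: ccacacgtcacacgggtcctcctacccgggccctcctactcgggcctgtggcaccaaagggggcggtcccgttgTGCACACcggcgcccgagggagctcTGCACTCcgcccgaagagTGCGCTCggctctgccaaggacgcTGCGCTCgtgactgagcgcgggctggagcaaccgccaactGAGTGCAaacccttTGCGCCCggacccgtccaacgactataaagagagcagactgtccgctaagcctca
Mt2A: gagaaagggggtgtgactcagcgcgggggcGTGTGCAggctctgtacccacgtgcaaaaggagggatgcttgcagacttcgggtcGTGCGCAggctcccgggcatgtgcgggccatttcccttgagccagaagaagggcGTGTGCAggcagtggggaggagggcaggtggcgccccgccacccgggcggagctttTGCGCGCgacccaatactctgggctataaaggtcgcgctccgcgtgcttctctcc
The matches are letters only, and no measurement of metal or of binding accompanies these counts.

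The median biological coefficient of variation over the 36 was 15.1%, against a median of 13.95% over all genes tested. Below the common value of 15.6% lay 19 members (52.8%) and 61.8% of all genes. Sod3 was the lowest at 10.05%, followed by Keap1 at 10.7%, Sod1 at 10.8%, Prdx6 at 10.9% and Nfe2l2 at 11.2%. For genes with few reads, such as Prdx6 at 6 to 20 counts per library, a low value does not show even levels. The coefficient of variation of CPM in sedentary LCR, counting noise included, was 37.4% for Prdx6, 23.1% for Sod3 and 9.57% for Sod1. Gstm2 at 31.7%, Srxn1 at 27.8%, Osgin1 at 27.7% and Nqo1 at 24.15% were the most variable after the metallothioneins. Of 4 pairs of classic NRF2 targets none passed for varying together from rat to rat. Nqo1 with Txnrd1 had r = -0.03, Nqo1 with Srxn1 r = 0.13, Gclm with Srxn1 r = 0.06 and Hmox1 with Osgin1 r = 0.13 (n = 26, permutation, adjusted p from 0.806 to 0.920 for r), with rho of -0.13, 0.05, 0.02 and 0.20 (adjusted p from 0.711 to 0.920). Within sedentary LCR, within sedentary HCR and over runners, r was 0.25, 0.09 and -0.48 for Nqo1 with Txnrd1. For Nqo1 with Srxn1 it was 0.51, 0.45 and -0.47, and for Gclm with Srxn1 0.10, 0.30 and -0.25. For Hmox1 with Osgin1 it was 0.47, -0.16 and 0.13. These parts were not tested singly. Counting noise lowers such correlations for genes with few reads.

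**Figure D4:**
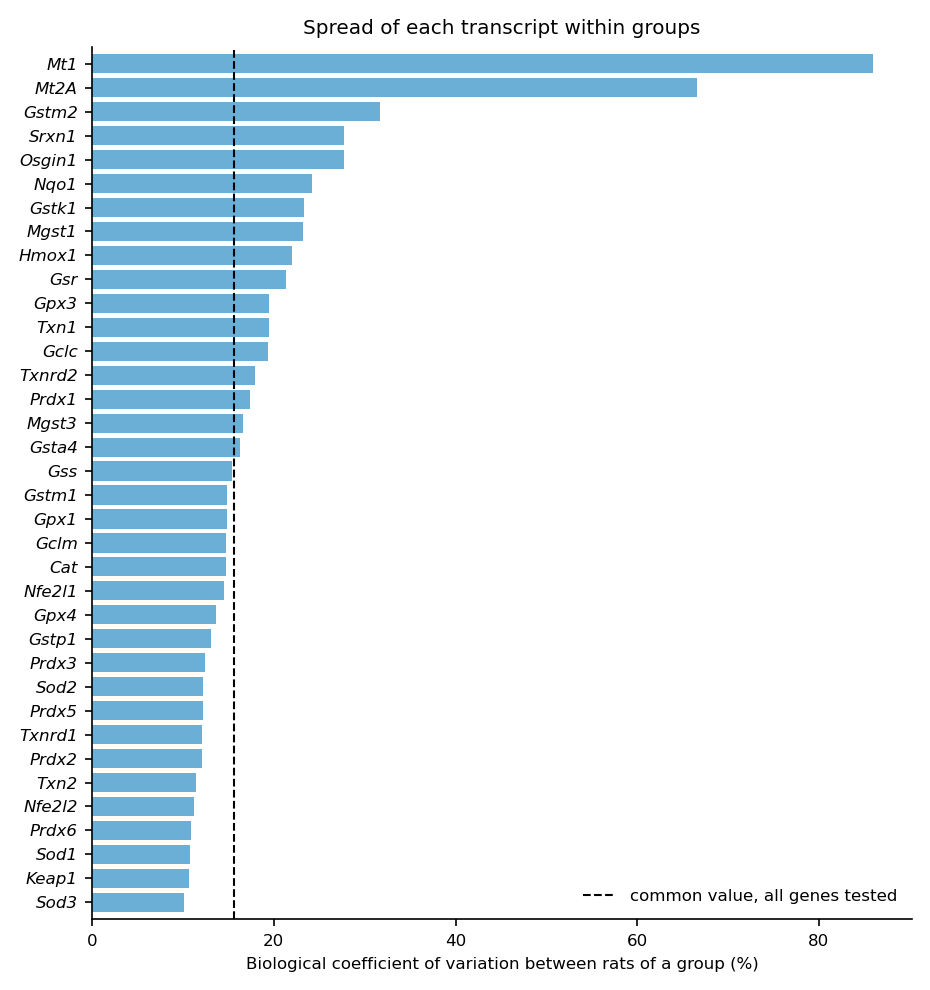
Biological coefficient of variation (percent) of each of the 36 members, with the common value over all genes tested as a line at 15.6%. Mt1 and Mt2A stand far above the rest, and 19 members (52.8%) lie below the line, as do 61.8% of all genes.

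Other genes of the pathway came from 3 lists chosen with earlier results known. Of 13 partners and regulators of NRF2 12 were tested and 0 passed between the sedentary lines. There 1 reached an unadjusted p under 0.05, against 15.9% of all genes. For running averaged over the lines 1 passed, where 0.378% of all genes passed. It was Btrc, which encodes a substrate adaptor of a ubiquitin ligase that also marks NRF2 (-0.51 ± 0.12, adjusted p = 0.0425). This call is near the threshold and was not followed through the alternatives. Btrc fell from 28.2 ± 5.45 to 22.8 ± 5.19 CPM in LCR and from 30.4 ± 5.21 to 18.7 ± 2.88 CPM in HCR as group means. Of 21 further targets for NADPH, glutathione and iron 17 were tested and 0 passed in these 2 comparisons or averaged over sedentary and running rats. Between the sedentary lines 5 of the 17 reached an unadjusted p under 0.05, against 15.9% of all genes. The nearest was Idh2, a mitochondrial source of NADPH (-0.35 ± 0.10 between the sedentary lines, adjusted p = 0.0574). Of 30 other redox enzymes 24 were tested and 1 passed between the sedentary lines, where 2.72% of all genes passed. It was Msrb1, which repairs oxidised methionine (0.53 ± 0.14, adjusted p = 0.0301). Msrb1 was at 32.7 ± 7.00 CPM in sedentary LCR and 47.4 ± 6.80 CPM in sedentary HCR. Averaged over sedentary and running rats 2 of these 24 passed, where 3.75% of all genes passed. In that average 7 of the 24 reached an unadjusted p under 0.05, against 15.7% of all genes. Oxidant sources such as NADPH oxidase subunits numbered 12 tested of 17, and 0 passed in these comparisons. Between the sedentary lines 2 of the 12 reached an unadjusted p under 0.05, against 15.9% of all genes. For running averaged over the lines 2 did, against 12.7%.

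Fast-fibre genes differed between the lines, and their part in the member differences was not tested. The fast-fibre list summed to 7634 to 13719 CPM in sedentary LCR, 2806 to 10120.2 CPM in sedentary HCR, 6210.5 to 13656 CPM in running LCR and 2661 to 5442 CPM in running HCR. Between the sedentary lines 0 of its 11 genes passed, with a list median of -0.37. There 4 reached an unadjusted p under 0.05, against 15.9% of all genes. Averaged over sedentary and running rats 4 of the 11 passed, all lower in HCR, where 3.75% of all genes passed. In this average 10 lay below 0 and 1 above, with a list median of -0.57. Among the 4 were the fast myosin Myh2 (-1.97 ± 0.36, adjusted p = 0.00197) and the fast troponin Tnni2 (-1.81 ± 0.28, adjusted p = 0.000327). Of the 8 slow-fibre genes 4 lay above and 4 below 0 there, with a median of 0.00 and 0 passing (1 at an unadjusted p under 0.05). Nqo1 was lower and Gstm2 and Cat higher in the same contrast. Of the 16 mitochondrial matrix enzymes 2 passed there, where 3.75% of all genes passed. They were Fh (0.64 ± 0.10, adjusted p = 7.55e-05) and Hadha (0.37 ± 0.10, adjusted p = 0.0278), both higher in HCR. In the contrast in which Osgin1 passed, 2 of 12 immediate early genes tested fell with running, where 0.378% of all genes passed. They were Dusp1, counted among the glucocorticoid targets too, and Rhob, which fell by 0.76 on the log2 scale (SE 0.17, adjusted p = 0.0425). The median of the 12 with running was -0.41, and the part of these genes in the Osgin1 value was not tested.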

How the data were processed

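RNA of soleus from 26 rats was made into 3' libraries primed from the poly(A) tail, per the labels' protocols. Values are whole-number counts per gene, deposited by the authors without normalization. Tools listed in the submitters' processing notes were STAR, featureCounts, cutadapt, UMI-tools, FastQC and MultiQC, and builds were mRatBN7.2 and rn7. Versions, collapsing of molecular identifiers and use of strand are not given in the sources used here. Sequence differences between the lines at a 3' end could change counts and were not tested.

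Groups followed the description and genotype. In R 4.3.3, edgeR 4.0.16 tested the counts (quasi-likelihood F test, robust), with TMM factors, the filterByExpr filter by group, no covariate and Benjamini-Hochberg adjustment at 0.05 over 10064 genes. The procedure was tested on simulated data. SE is the size of the log2 fold change over the square root of F, and 95% intervals use the t quantile of the fit. Log2 CPM for correlations used a prior count of 2. Pairs were tested by 100000 permutations within groups. DESeq2 1.42.0, limma 3.58.1 voom, other scalings and filters, a replicate block, other handling of the conflicting titles and the loss of each library were alternatives.

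Members and lists were chosen with earlier results of these data known. The text names with values the members that passed or were among the 3 smallest p of a comparison, and the genes of the 14 pairs. The other members are accounted for by role, and context genes are those that passed or those of the pairs, with Idh2 and Cd68 named after their values were seen. No 2 libraries of a group agreed within sampling noise, over 76 pairs. The labels name no batch. The edgeR p-values set group differences against the spread between these rats, estimated over the 4 groups together and with no term for cage.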

Additional observations from a re-analysis of the deposited data

Results flagged for a closer look

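In groups of 4 to 10 rats, a single animal far from the others was looked for in each member and group. It was found in 8 of 144 member groups, where chance gives about 1 in 20, or 7.2.

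In sedentary LCR, Hmox1 was at 24.6 CPM in LCR sedentary 2 against 12.3 to 16.2 CPM in the other 7 rats. Gsr was at 7.76 CPM in LCR sedentary 6 against 16.5 to 24.1 CPM. Gstp1 was at 32.4 CPM in LCR sedentary 8 against 14.2 to 21.5 CPM, and Mgst1 at 17.4 CPM in LCR sedentary 3 against 5.23 to 10.9 CPM. Mt1 was at 68.2 CPM in LCR sedentary 5 against 1.08 to 30.6 CPM. In sedentary HCR, Gpx1 was at 413 CPM in HCR sedentary 3 against 589 to 740.3 CPM. LCR running 4 stood out for 2 members, with Gclm at 23.4 CPM against 20.1 to 20.9 CPM and Txnrd1 at 107 CPM against 85.1 to 91.2 CPM.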

How the results depend on the processing

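No called member changed sign under any alternative. Of 1266 refitted gene values 1165 kept their side of the threshold, 90 lost a call and 11 gained one. Most of these values were of results not called in the main fit, which could not lose a call. All 90 losses fell on the calls of Nqo1, Hmox1, Gstm2, Cat and Osgin1. Calls held in as few as 8 of 26 refits without 1 library (Osgin1, and Gstm2 in sedentary rats). The averaged call of Nqo1 held in all 26. Other scalings moved the median of all genes by less than 0.1. Low counts limit the precision of members such as Osgin1 (from 2 counts) and Gclc (from 2 counts). Context genes that passed, such as Btrc, Rhob, Msrb1, Spp1 and Gstm7, were not followed singly through the alternatives.

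Members called between the sedentary lines numbered 3, but 1 with no filter, 1 with only the groups compared fitted, 1 with both conflicting libraries under their title's line, and 0 to 4 without 1 library. Averaged over sedentary and running rats they numbered 3, but 0 with the title's line, 1 without both conflicting libraries and 1 to 3 without 1 library. For running averaged over the lines they numbered 1, but 0 with limma voom, with the replicate block and without the conflicting libraries, and 0 to 1 without 1 library. In the other comparisons 0 members were called under every alternative run, leaving out each library included (0 to 0).

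Over all genes, 63 calls between running lines became 35 with only the groups compared, 0 with the title's line, 35 without the conflicting libraries and 32 to 67 without 1 library. The 377 averaged calls became 137 with the title's line and 315 to 403 without 1 library. The 274 sedentary calls became 182 to 337. For running in LCR, 0 became 2 with no filter or DESeq2, 1 without the conflicting libraries and 0 to 2 without 1 library. For running in HCR, 10 became 79 with DESeq2 and 4 to 38 without 1 library. For running averaged, 38 became 80 with DESeq2, 22 with voom, 19 with the replicate block and 9 to 63 without 1 library. The difference of responses stayed at 0. With upper-quartile scaling 17 of 32 averaged running calls were higher (53.1%), against 26 of 38, and 10 of 14 in HCR (71.4%), against 10 of 10.

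The correlation of Hmox1 and Cd68 was -0.009365 without the conflicting libraries, the correlation of Sod3 and Col1a1 was 0.151 without TMM factors, and the correlation of Prdx3 and Cs was 0.615 without TMM factors and 0.567 without the conflicting libraries, both past the threshold.

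Replicate numbers did not pair the rats: the median correlation of deviations was -0.00 for 33 same-numbered pairs and 0.00 for others. With the replicate block 4 members were called between the sedentary lines and 2 averaged over sedentary and running rats, against 3 and 3. The call of Cat was lost with it (adjusted p = 0.0597), as was that of Osgin1 (adjusted p = 0.135).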
